A study of Mus musculus with 18 samples.

Results

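Lce1f, Sema7a, Foxs1 and Fam110c are 4 genes that rose steeply within 4 h of TGFb1 in mouse embryonic fibroblasts and that belong to none of the pathways usually read out for this ligand. They were chosen from the differences between cells at 4 h and untreated cells, so their levels at 4 h are a description and carry no test. They are covered by 7 of the 45101 probe sets on the array, and they are 4 of the 10078 genes that could be fitted. Lce1f, Sema7a and Fam110c have 2 probe sets each, and Foxs1 has 1. Of the 7 probe sets 6 passed a filter on dim signals, which kept a probe set whose log2 intensity was at least 5 in at least 2 arrays. The study compared fibroblasts that were homozygous or heterozygous for a mutant, described by the submitters as constitutively active, with wt fibroblasts. The title places a point mutation in TGFBR1, whereas the design names a TGFb1 mutant, so it is called the mutant here. Cells of each genotype were either untreated, described in the design as vehicle, or exposed to TGFb1 at 5 ng/mL, harvested at 4 h or at 24 h. Each of the 9 groups has 2 arrays, which makes 18. All cells were grown from E12.5 to E14.5 embryos without head, liver and blood clots, in medium with serum, and no label gives the strain or the number of embryos per culture. Since no label tells whether both arrays of a group had their own culture, every p-value measures the spread between these arrays, which may be technical.

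TGFb1 binds a receptor complex whose type I kinase, TGFBR1, phosphorylates SMAD2 and SMAD3, and these enter the nucleus with SMAD4 and act with other factors on target promoters. In fibroblasts the ligand is best known for matrix and contractile genes and for feedback inhibitors such as Smad7. The 4 genes here have other known roles. Lce1f encodes a late cornified envelope protein, a small protein cross-linked beneath the membrane of outer epidermal cells, and lies in the epidermal differentiation complex on chromosome 3. Sema7a, on chromosome 9, encodes a semaphorin held at the cell surface by a lipid anchor, which signals through plexin C1 and through the integrin of Itga1 and Itgb1. In mice it has been linked to lung fibrosis driven by TGFb1. Foxs1, on chromosome 2, encodes a forkhead transcription factor known from pericytes, the contractile cells around small vessels, and from sensory neurons. Fam110c, on chromosome 12, belongs to a small family whose proteins have been located at the centrosome and microtubules in human cells.

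Promoter windows of Sema7a and Fam110c, covering 250 bases before to 50 bases after the annotated start of the gene, were taken from a table of RefSeq promoters (GRCm38.p6), in which 2 of the 4 genes matched. They are shown for the letters near the start of genes that rose at 4 h. Capitals mark matches, on either strand, to any of 7 short motifs. For Smad proteins these were GTCTAG, which is part of the palindromic Smad box, and the CAGACA element of activin and TGFb target genes. Another Smad motif was GGCGCC, which is rich in G and C. For AP-1, the Fos and Jun factor, the letters TGANTCA were searched, and for the TEAD factors GGAATG. The E-box of Snail factors was searched as CAGGTG, and the TATA box as TATAAA. The Sema7a window lies at chr9:57939862-57940161 on the plus strand and holds no full match to any of the 7 motifs. Shorter parts of the motifs, such as GTCT, which occurs in this window, were not counted.
Sema7a: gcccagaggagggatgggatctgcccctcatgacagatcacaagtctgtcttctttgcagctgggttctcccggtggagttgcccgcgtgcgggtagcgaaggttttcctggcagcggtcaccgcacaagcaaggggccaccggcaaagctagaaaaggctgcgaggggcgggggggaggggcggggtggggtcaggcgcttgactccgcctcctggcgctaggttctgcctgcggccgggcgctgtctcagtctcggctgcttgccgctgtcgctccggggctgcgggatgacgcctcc
The Fam110c window lies at chr12:31073718-31074017, also on the plus strand.
Fam110c: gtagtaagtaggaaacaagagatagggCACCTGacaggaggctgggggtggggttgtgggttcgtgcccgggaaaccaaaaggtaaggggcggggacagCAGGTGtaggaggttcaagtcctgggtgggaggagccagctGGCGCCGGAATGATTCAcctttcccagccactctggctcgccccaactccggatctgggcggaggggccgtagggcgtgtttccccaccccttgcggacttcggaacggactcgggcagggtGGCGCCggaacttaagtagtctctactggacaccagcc
In the Fam110c window GGCGCC stood at position -110 from the start and again at position 12, and the first of these was followed without a gap by GGAATG at position -104. The AP-1 match, TGATTCA at position -100, shared its first bases with the TEAD match. The E-box letters were present at position -151 and, on the opposite strand, at position -223. Of 32544 promoter windows of the same length, 11.9% held GGCGCC and 2.1% held it at least 2 times. The share was 7.8% for TGANTCA, 14.6% for GGAATG, 20.3% for CAGGTG, 20.9% for CAGACA, 8.4% for GTCTAG and 13.6% for TATAAA. GC content was 67.3% in the Sema7a window and 62.3% in the Fam110c window, against a median of 53.0% over all windows. Such matches are descriptions of letters and do not show that a factor binds.

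The deposited values are GCRMA intensities, on which log2 was taken, so all levels below are log2 intensities of a probe set and can be compared between arrays but not between genes. Between 39.55 and 40.4% of probe sets lay above log2 5 in each array, and arrays of the same group correlated at r = 0.974 to 0.994 over genes. The spread between the 2 arrays was wider in wt groups (root mean square SD 0.321 to 0.387) than in mutant groups (0.183 to 0.222). Of 12 fibroblast markers 11 were above log2 5 in every array, and the lowest and highest array means of the list were 12.35 and 13.10. Of 19 measured TGFb and Smad target and feedback genes, 14 were called higher at 4 h in homozygous, 12 in heterozygous and 13 in wt cells. A gene was called when the adjusted p of the limma fit, with Benjamini-Hochberg adjustment over all 10078 genes, was under 0.05. At 4 h this held for rises of 20.1% of all genes in homozygous, 15.7% in heterozygous and 9.49% in wt cells.

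Lce1f rose more than any other gene at 4 h in homozygous cells and, with all arrays, in wt cells. Without array 1 of the wt pair at 4 h, Sema7a rose more than Lce1f there (5.86 against 5.50 log2). In heterozygous cells the order of Lce1f against Sema7a, for which only a bound can be given there, was not settled either. The values below are those of Lce1f. Its brighter probe set read 6.14 and 6.16 in untreated homozygous cells, 11.85 and 11.63 at 4 h, and 8.78 and 8.88 at 24 h. In heterozygous cells the readings were 6.49 and 6.11 untreated, 11.77 and 11.66 at 4 h, and 8.50 and 8.97 at 24 h. In wt cells they were 6.0 and 6.13 untreated, 10.92 and 11.56 at 4 h, and 8.78 and 8.85 at 24 h. Within each genotype the 3 time points did not overlap, and 24 h lay between untreated and 4 h. The difference at 4 h was 5.59 ± 0.20 log2 in homozygous, 5.41 ± 0.20 in heterozygous and 5.18 ± 0.20 in wt cells (SE of the fit, n = 2 arrays against 2), or 48.3-fold, 42.6-fold and 36.2-fold. At 4 h both treated arrays lay above both untreated arrays for all 4 genes in each genotype, as the choice of genes entails, and for 42.5% of all genes in homozygous, 37.8% in heterozygous and 19.9% in wt cells. In RNA from a whole culture, a higher level per cell and a larger share of cells that express the gene cannot be told apart.

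**Figure D1:**
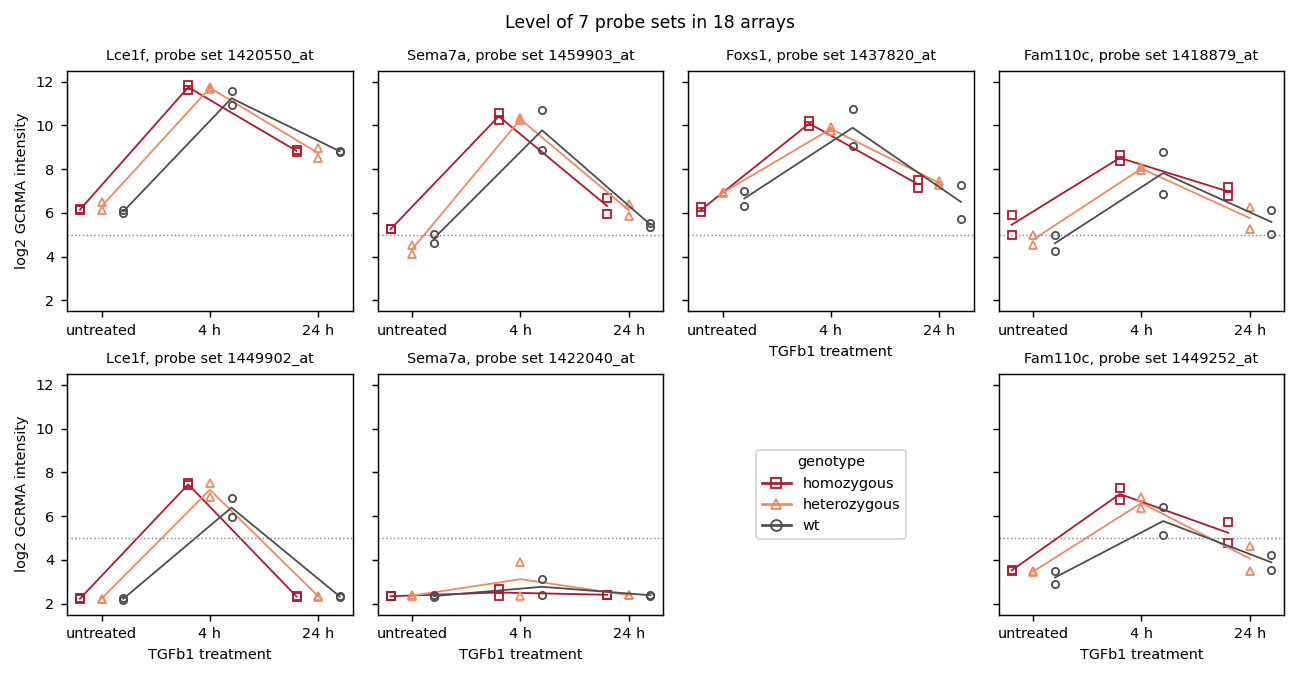
Levels of the 7 probe sets of Lce1f, Sema7a, Foxs1 and Fam110c (y axis, log2 GCRMA intensity) in untreated cells and after 4 h and 24 h of TGFb1 (x axis). Symbols are single arrays (2 per group), lines join group means, colours give the genotype, and the dotted line marks log2 5. All probe sets have their highest group mean at 4 h in each genotype, the dim Sema7a one under log2 5 throughout.

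At 24 h Lce1f was still above untreated cells in every genotype. The difference was 2.69 ± 0.20 log2 in homozygous cells (6.44-fold, adjusted p = 1.3e-05 in limma), 2.43 ± 0.20 in heterozygous cells (5.40-fold, 1.77e-05) and 2.75 ± 0.20 in wt cells (6.73-fold, 5.37e-06). These tests share the untreated arrays with the contrast that chose the gene. On the linear scale, 11.5% of the rise at 4 h was left at 24 h in homozygous, 10.6% in heterozygous and 16.3% in wt cells. Lce1f ranked 9th of all genes by its rise at 24 h in homozygous, 16th in heterozygous and 12th in wt cells. The second probe set was dimmer. It read 7.41 and 7.49 in homozygous, 6.88 and 7.52 in heterozygous and 5.97 and 6.81 in wt cells at 4 h. In every untreated and every 24 h array it lay under log2 5, with group means of 2.22 to 2.34. It therefore gives bounds only: at 4 h the level was at least 5.47-fold that of untreated cells in homozygous, 4.60-fold in heterozygous and 2.62-fold in wt cells. The level left at 24 h was read by the brighter probe set alone.

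Sema7a showed the steepest fall back after 4 h. Its measurable probe set read 5.25 and 5.26 in untreated homozygous cells, 10.24 and 10.59 at 4 h, and 5.94 and 6.70 at 24 h. In heterozygous cells it read 4.54 and 4.14 untreated, 10.24 and 10.32 at 4 h, and 6.40 and 5.86 at 24 h. In wt cells it read 5.05 and 4.61 untreated, 8.86 and 10.69 at 4 h, and 5.37 and 5.56 at 24 h. The arrays at 24 h lay above the untreated arrays in each genotype, by a margin that was small beside the peak. The difference at 4 h was 5.16 ± 0.45 log2 (35.8-fold) in homozygous cells and 4.94 ± 0.45 (30.8-fold) in wt cells, where 1 untreated array lay under log2 5. Both untreated heterozygous arrays lay under that level, so the rise there is given as at least 38.8-fold.

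By 24 h most of the Sema7a rise was gone. Sema7a was 1.07 ± 0.45 log2 above untreated cells in homozygous cells (adjusted p = 0.184, limma), and 0.63 ± 0.45 in wt cells (adjusted p = 0.407). In heterozygous cells it was called, at least 2.18-fold higher with an adjusted p of 0.0275. That call was lost when any of the 4 heterozygous arrays compared was left out (adjusted p = 0.0608 to 0.22), without the filter on dim probe sets (0.0628) and with 16 added to the intensities (0.1). On the linear scale 3.14% of the rise was left in homozygous, 4.06% in heterozygous and 1.86% in wt cells. The other Sema7a probe set stayed between 2.31 and 3.88 in all 18 arrays, under log2 5, and failed the filter. The Sema7a values thus rest on 1 probe set, which, unlike the dim one, was designed on an expressed sequence tag. The Foxs1 probe set and both Lce1f probe sets were designed on such tags too.

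Foxs1 rose at 4 h in all genotypes, most in the mean of the homozygous arrays. Its only probe set read 6.26 and 6.02 in untreated homozygous cells, 10.20 and 9.97 at 4 h, and 7.49 and 7.15 at 24 h. In heterozygous cells the values were 6.94 and 6.89 untreated, 9.94 and 9.74 at 4 h, and 7.29 and 7.44 at 24 h. In wt cells they were 6.30 and 7.02 untreated, 9.05 and 10.73 at 4 h, and 5.71 and 7.29 at 24 h. At 24 h both mutant pairs were above their untreated pairs, and the wt arrays lay on both sides of the untreated ones. The difference at 4 h was 3.94 ± 0.50 log2 (15.4-fold) in homozygous, 2.92 ± 0.50 (7.57-fold) in heterozygous and 3.23 ± 0.50 (9.38-fold) in wt cells. At 24 h no difference was called: it was 1.18 ± 0.50 in homozygous (adjusted p = 0.19, limma), 0.45 ± 0.50 in heterozygous (0.775) and -0.16 ± 0.50 in wt cells (0.884). The sign of the wt value at 24 h changed when single arrays were left out: it was 0.63 without array 1 and -0.94 without array 2 of the treated pair, and -0.51 without array 1 and 0.20 without array 2 of the untreated pair.

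Fam110c had the smallest fold of the 4 genes at 4 h in homozygous cells. Its brighter probe set read 5.92 and 4.99 in untreated homozygous cells, 8.64 and 8.39 at 4 h, and 7.20 and 6.76 at 24 h. In heterozygous cells it read 5.01 and 4.55 untreated, 7.96 and 8.10 at 4 h, and 6.28 and 5.25 at 24 h. In wt cells it read 4.97 and 4.25 untreated, 6.86 and 8.78 at 4 h, and 5.03 and 6.14 at 24 h. The 24 h arrays again stood between the untreated and the 4 h arrays in each genotype without overlap. The difference at 4 h was 3.06 ± 0.56 log2 (8.32-fold) in homozygous and 3.25 ± 0.56 (9.49-fold) in heterozygous cells, and at least 7.06-fold in wt cells, whose untreated arrays were both under log2 5. At 24 h it was 1.52 ± 0.56 in homozygous (adjusted p = 0.128, limma) and 0.98 ± 0.56 in heterozygous cells (0.424), and at least 1.5-fold in wt cells (0.31). None of these passed the threshold. The dimmer probe set was under log2 5 in every untreated array. It gave a level at 4 h of at least 4.02-fold, 3.03-fold and 1.71-fold in homozygous, heterozygous and wt cells, and its adjusted p at 24 h was 0.0525 in homozygous cells.

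In the wt arrays at 4 h, array 1 was lower than array 2 for all 4 genes, least for Lce1f. Smad7, a feedback inhibitor of the pathway, also differed there (11.56 and 12.49), while the cytokine gene Il11 (11.60 and 11.67) and Tgfb1 (11.12 and 11.06) were alike in both. The wt changes at 4 h moved with that pair. Without array 1 they were 5.50 log2 for Lce1f, 5.86 for Sema7a and 4.07 for Foxs1. Without array 2 they were 4.86, 4.03 and 2.39 for the same genes. No size is given for Fam110c, whose untreated wt arrays were both under log2 5.

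Set side by side at 24 h, 1 of the 4 genes was called higher in homozygous cells, where 3.1% of all genes were. In heterozygous cells 2 of 4 were called, against 2.95% of all genes, and in wt cells 1 of 4, against 4.51%. Both arrays at 24 h lay above both untreated arrays for 4 of 4 genes in homozygous, 4 of 4 in heterozygous and 3 of 4 in wt cells. The same held for 29.6, 30.5 and 19.2% of all genes in those genotypes. All these counts use the untreated arrays that also chose the genes. In homozygous cells the 24 h calls changed with the weighting of arrays: with arrays weighted by their quality, Sema7a (adjusted p = 0.00569, limma), Foxs1 (0.00438) and Fam110c (0.00602) passed as well. Some replicate blocks, described further below, also called these genes there.

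**Figure D2:**
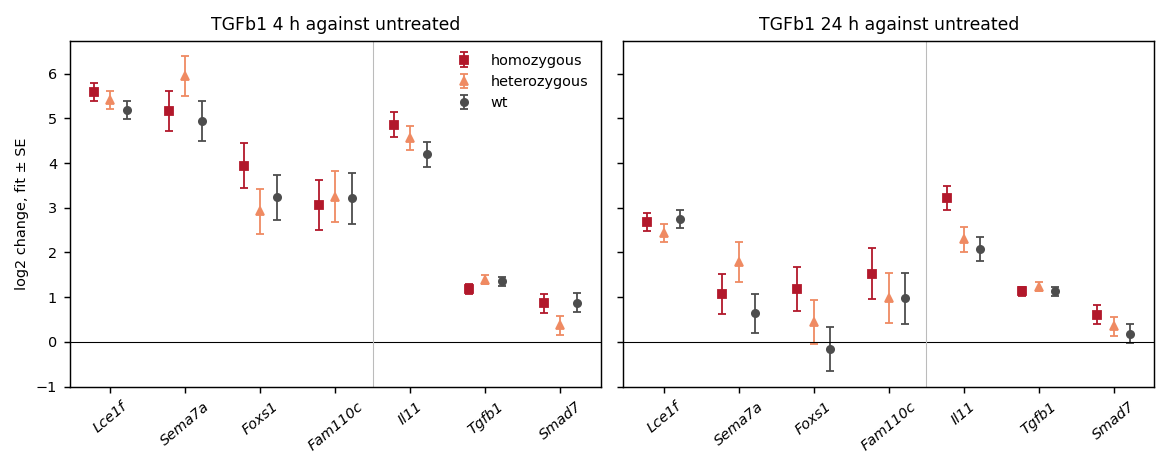
Log2 change (y axis) of Lce1f, Sema7a, Foxs1 and Fam110c and, right of the grey line, of Il11, Tgfb1 and Smad7 after 4 h (left) and 24 h (right) of TGFb1 against untreated cells. Points are fitted changes, bars are the standard errors of the fit (n = 2 arrays against 2), and colours give the genotype. Where untreated arrays were dim (Sema7a in heterozygous, Fam110c in wt cells) the fitted value is drawn in place of a bound. Lce1f stays near 2.4 to 2.8 at 24 h, while Sema7a and Foxs1 return towards 0.

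The comparison genes kept different shares of their 4 h rise. Il11, which rose by 4.86 ± 0.28 log2 in homozygous, 4.56 ± 0.28 in heterozygous and 4.19 ± 0.28 in wt cells, kept 29.6, 17.3 and 18.6% of that rise on the linear scale at 24 h. Tgfb1, the ligand's own gene, rose by 1.18 to 1.39 log2 and kept 93.6% in homozygous, 83.5% in heterozygous and 76.6% in wt cells. Smad7, at 0.86, 0.37 and 0.87 ± 0.21 log2 at 4 h, kept 63.5% in homozygous, 93.4% in heterozygous and 16.4% in wt cells. Among the 4 genes the linear share left ran from 25.6% for Fam110c in homozygous cells to -1.2% for Foxs1 in wt cells. On that scale each of the 4 genes kept less than Il11 in the same genotype. As a share of the log2 change, Lce1f kept 48.0% in homozygous, 45.0% in heterozygous and 53.1% in wt cells. Il11 kept 66.2, 50.3 and 49.5% of its log2 change, so the order of these genes in wt cells depends on the scale. These shares are descriptions without a test, because the 4 h arrays chose the genes.

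Genotype could be tested on the 24 h arrays, which played no part in the choice of genes. The spread in the fit, however, came from all 18 arrays, among them those that chose the genes. The wt pair at 4 h had the largest SD of any group for Sema7a (1.30), Foxs1 (1.19) and Fam110c (1.35). None of the 12 comparisons of a gene between genotypes at 24 h was called in the limma fit without replicate blocks. No label says what a replicate number marks, and the calls that blocks changed are given further below. For homozygous against wt cells the difference was 0.02 log2 for Lce1f (95% interval -0.41 to 0.46), 0.85 for Sema7a (-0.11 to 1.81), 0.81 for Foxs1 (-0.26 to 1.89) and 1.39 for Fam110c (0.17 to 2.62). The adjusted p of the limma fit was 0.994, 0.511, 0.604 and 0.354 in that order of genes. The 2 homozygous arrays lay above the 2 wt arrays for Sema7a and Fam110c, as they did for 24.1% of all genes, and overlapped them for Lce1f and Foxs1. Heterozygous arrays lay above wt arrays for Sema7a (25.2% of all genes), and homozygous above heterozygous arrays for Fam110c (12.2% of all genes). On the dimmer Fam110c probe set both wt arrays and homozygous array 2 (4.76) lay under log2 5, so no size is given. Its adjusted p for homozygous against wt cells was 0.327 in the limma fit. For heterozygous against wt cells the differences were -0.08, 0.66, 0.86 and 0.18 log2 for Lce1f, Sema7a, Foxs1 and Fam110c (adjusted p = 0.698 to 0.995). For homozygous against heterozygous cells they were 0.10, 0.19, -0.05 and 1.22 (adjusted p = 1 for each). Over all genes 0.486% were called between homozygous and wt, 1.22% between heterozygous and wt, and 0.0298% between homozygous and heterozygous cells at 24 h.

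**Figure D3:**
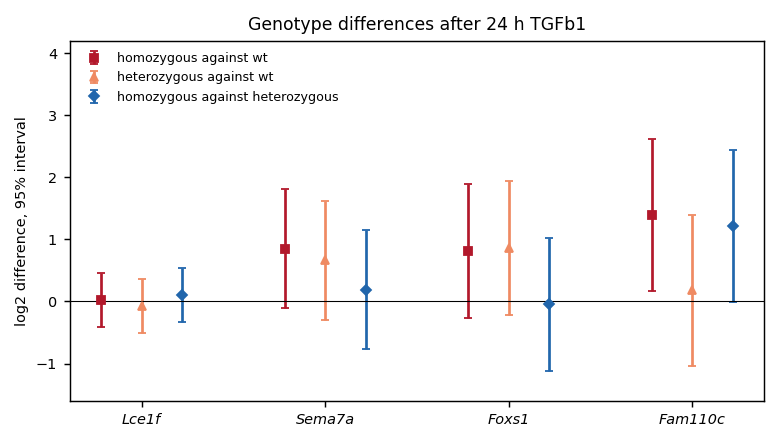
Difference in log2 level between genotypes after 24 h of TGFb1 (y axis) for Lce1f, Sema7a, Foxs1 and Fam110c (x axis). Points are fitted differences and bars are 95% intervals from the fit (n = 2 arrays against 2). The interval of Lce1f reaches no further than 0.54 from 0 in any comparison, and that of Fam110c for homozygous against wt cells runs from 0.17 to 2.62.

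Untreated cells, whose values chose the genes, are compared without a test. Their homozygous and wt means differed by 0.08 log2 for Lce1f, 0.42 for Sema7a and -0.52 for Foxs1. For Fam110c both wt arrays and homozygous array 2 (4.99) lay under log2 5, so no size is given. Macrophage marker genes differed between these cultures. The mean over 11 markers at 24 h was 7.45 and 7.78 in homozygous and 8.03 and 8.67 in heterozygous arrays, against 5.07 and 6.08 in wt arrays. Of the 11 markers 0 were called higher in homozygous and 6 in heterozygous against wt cells, with median differences of 2.01 and 2.62 log2. Over all genes 0.486% and 1.22% were called in either direction, with medians of 0.005 and 0.02 log2. The part of the macrophage markers in the genotype differences was not tested.

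Genes of the epidermal differentiation complex, which surround Lce1f and encode proteins of the outer epidermis and calcium-binding S100 proteins, were mostly not measurable in these cells. Of 63 listed genes other than Lce1f, 45 had a probe set and 9 were measured. At 4 h 5 of these 9 rose in homozygous, 5 in heterozygous and 3 in wt cells, and none fell, where 20.1, 15.7 and 9.49% of all genes rose. The median difference was 0.64, 0.58 and 0.50 log2 in those genotypes, against 0.03, 0.02 and -0.03 over all genes. Crct1, a cysteine-rich gene of the complex, rose by 3.6 ± 0.33 log2 in homozygous (adjusted p = 1.22e-05, limma), 3.11 ± 0.33 in heterozygous (4.25e-05) and 2.77 ± 0.33 in wt cells (0.000184). Its arrays at 4 h read 9.64 and 9.94 in homozygous, 9.33 and 8.97 in heterozygous and 9.38 and 9.56 in wt cells, all well above every untreated array (5.73 to 7.01). By 24 h Crct1 was not called in any genotype, at 0.46, -0.29 and -0.43 log2.

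Lce1h, another late cornified envelope gene, rose at 4 h by 2.76 ± 0.32 log2 in homozygous (adjusted p = 6.07e-05, limma), 2.59 ± 0.32 in heterozygous (0.000124) and 1.65 ± 0.32 in wt cells (0.00374). In homozygous cells it was still called at 24 h, at 1.28 ± 0.32 (adjusted p = 0.0236). Its probe set is of the kind the manufacturer marks as matching several transcripts, so signal from Lce1f or other relatives cannot be told apart from its own. The other 13 late cornified envelope genes with a probe set stayed under log2 5 in every array, the highest reading being 3.99. Lor, which encodes the main cornified envelope protein loricrin, rose by 1.21 ± 0.23 log2 in wt cells (adjusted p = 0.00342), at 6.78 and 6.75 against 5.56 and 5.54. In homozygous (0.59 ± 0.23, adjusted p = 0.0588) and heterozygous cells (0.56 ± 0.23, 0.0826) it did not pass the threshold. A further Lor probe set was under log2 5 in every array, and another was above it only in wt cells at 4 h (5.10 and 5.21). S100a1 rose by 1.16 ± 0.28 in homozygous (adjusted p = 0.00721) and by 1.02 ± 0.28 in heterozygous cells (0.0178), as did S100a13 and S100a16 by smaller amounts. The S100a1 values come from a probe set marked as matching several transcripts, and its other probe set was under log2 5 in every array.

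**Figure D4:**
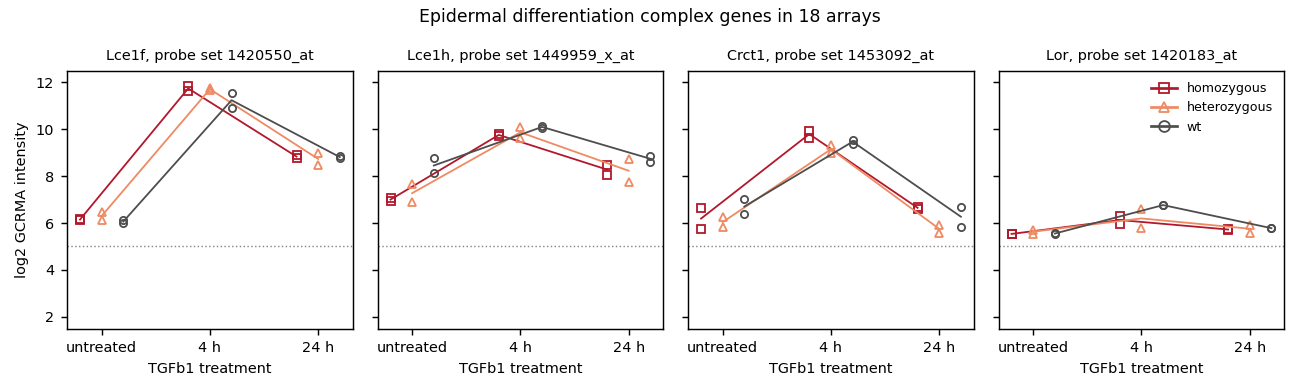
Levels (y axis, log2 GCRMA intensity) of Lce1f and of 3 further genes of the epidermal differentiation complex, Lce1h, Crct1 and Lor, in untreated cells and after 4 h and 24 h of TGFb1 (x axis). Symbols are single arrays (2 per group), lines join group means, colours give the genotype, and the dotted line marks log2 5. Crct1 at 24 h (5.58 to 6.70) lies near its untreated arrays (5.73 to 7.01), whereas Lce1f at 24 h stays above all untreated arrays.

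Markers of keratinocytes, the cells that normally form the cornified envelope, were under the dim level or were not called. Of 13 markers 9 lay under log2 5 in every array, among them Krt5, Krt14, Krt1, Trp63, Cdh1 and Col17a1. The other 4 (Krt10, Perp, Sfn and Epcam) were called in none of the 6 comparisons with untreated cells, in the limma fit without replicate blocks. The mean over the 13 markers was 3.91 to 4.22 at 4 h and 3.92 to 4.17 at 24 h in homozygous cells, against 3.70 to 3.99 in untreated homozygous cells. Sfn was uneven within groups, at 8.35 and 4.83 in untreated homozygous cells, 10.09 and 7.04 at 4 h, and 9.55 and 6.68 at 24 h. In heterozygous cells Sfn read 4.86 and 7.58, then 5.95 and 9.09, then 6.67 and 8.93. Same-numbered mutant arrays thus rose at both times, but no label says what a number marks. In wt cells array 1 read 7.01, 7.29 and 6.81, and array 2 read 4.25, 8.48 and 8.24. A rise of Sfn within replicate numbers was not tested. Ivl, which encodes the envelope precursor involucrin, was under log2 5 in all 18 arrays.

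Of 19 other semaphorin genes 11 were measured, and at 4 h the only 1 called higher in any genotype was Sema4f, a transmembrane semaphorin. Of all genes 20.1, 15.7 and 9.49% were called higher then in homozygous, heterozygous and wt cells. Sema4f rose by 2.21 ± 0.31 log2 in homozygous (adjusted p = 0.000256, limma), 2.16 ± 0.31 in heterozygous (0.000418) and 2.14 ± 0.31 in wt cells (0.000672). Its brighter probe set, which is marked as matching several transcripts, read 8.82 and 9.10 in homozygous, 8.58 and 8.43 in heterozygous and 8.59 and 8.68 in wt cells at 4 h. The other Sema4f probe set, without that mark, stayed between 2.37 and 4.46 in all 18 arrays. At 24 h Sema4f was still called on the brighter one, at 1.40, 1.47 and 1.04 log2 (adjusted p = 0.0139, 0.0122 and 0.0498, limma). Sema4b fell at 4 h (-0.88 log2 in homozygous and -0.69 in heterozygous cells), and Sema5a fell in homozygous cells to under log2 5 in both arrays. Sema3c, a secreted semaphorin, fell at 24 h in homozygous cells (-1.30 ± 0.32 log2, adjusted p = 0.0235). Sema3d fell in wt cells at 24 h (adjusted p = 0.0303), with both arrays under log2 5, so no size is given. At 4 h 2, 1 and 0 of the 11 fell in homozygous, heterozygous and wt cells, where 17.5, 13.2 and 11.4% of all genes fell. At 24 h 1 rose in each genotype, where 3.1, 2.95 and 4.51% of all genes rose. Then 1, 0 and 1 fell, where 5.51, 4.12 and 7.14% of all genes fell. The median over the 11 genes at 4 h was -0.20, -0.31 and -0.27 log2 in homozygous, heterozygous and wt cells.

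The receptors through which Sema7a signals showed no called change. Itgb1, the integrin beta 1 chain, differed from untreated cells by -0.29 to 0.21 log2 over the 6 comparisons, and Itga1 by -1.15 to -0.24. Plxnc1, the plexin C1 gene, was close to the dim level, at 3.58 to 5.55 over the 18 arrays, so its changes could not be measured well. Of 11 measured semaphorin receptor genes, 2 fell in homozygous, 1 in heterozygous and 0 in wt cells at 4 h, against 17.5, 13.2 and 11.4% of all genes that fell. Plxnb2, a plexin for class 4 semaphorins, fell in homozygous (-0.76 ± 0.11 log2) and heterozygous cells (-0.48 ± 0.11). Nrp2, a neuropilin that binds class 3 semaphorins, fell by 0.49 ± 0.14 at 4 h in homozygous cells, and at 24 h it was higher in all genotypes, by 0.57, 0.66 and 1.12 ± 0.14 log2 in homozygous, heterozygous and wt cells (adjusted p = 0.0208, 0.0115 and 0.00023, limma).

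Of 43 other forkhead genes 18 were measured. At 4 h 3 rose and 5 fell in homozygous cells, 3 rose and 4 fell in heterozygous cells, and 3 rose and 4 fell in wt cells, where 20.1, 15.7 and 9.49% of all genes rose and 17.5, 13.2 and 11.4% fell. Foxd1, known from renal stroma, fell at 4 h, with differences of -1.68 ± 0.13 log2 in homozygous, -1.69 ± 0.13 in heterozygous and -1.48 ± 0.13 in wt cells (adjusted p = 5.68e-06, 5.7e-06 and 2.52e-05, limma). Foxd1 fell at 24 h as well (-1.15, -1.06 and -0.74 ± 0.13 in homozygous, heterozygous and wt cells). At that time 0 of the 18 rose and 3 fell in homozygous, 0 rose and 1 fell in heterozygous, and 1 rose and 1 fell in wt cells. Of all genes 3.1, 2.95 and 4.51% rose and 5.51, 4.12 and 7.14% fell at 24 h. Foxc1, a regulator of mesenchyme, fell at 4 h, at -1.35, -1.21 and -1.12 ± 0.18 log2, as did Foxo3, a factor restrained by Akt signalling, at -1.15, -1.24 and -0.88 ± 0.13, in homozygous, heterozygous and wt cells. The largest called rise in mutant cells was that of Foxf2, a mesenchymal factor, by 1.15 ± 0.32 in homozygous and 1.10 ± 0.32 in heterozygous cells (adjusted p = 0.0141 and 0.0215). Foxc2 rose by less at 4 h, by 0.46, 0.50 and 0.43 ± 0.11, and was the gene that rose in wt cells at 24 h, by 0.58 ± 0.11 (adjusted p = 0.00427).

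Of 12 markers of pericytes and smooth muscle, the first of which are cells where Foxs1 is known, 10 were measured, all above log2 5 in every array. They included the pericyte markers Rgs5 and Pdgfrb, whereas Abcc9 and Kcnj8 stayed under log2 5 in every array. At 4 h 3 rose and 2 fell in homozygous, 3 rose and 2 fell in heterozygous, and 1 rose and 1 fell in wt cells, with medians of 0.02, 0.05 and 0.08 log2. Over all genes 20.1% rose and 17.5% fell in homozygous, 15.7% and 13.2% in heterozygous, and 9.49% and 11.4% in wt cells. Cspg4, a proteoglycan of pericytes, was the only 1 of the 10 called higher at 24 h, in each genotype. At 4 h it rose too, and read 10.96 and 11.07 in homozygous, 11.11 and 11.28 in heterozygous and 11.02 and 11.03 in wt cells. In untreated cells it read 10.34 and 10.24 in homozygous, 10.34 and 10.51 in heterozygous and 10.12 and 10.23 in wt cells. Of 9 neuron and glia markers with a probe set 5 lay under log2 5 in every array, namely Map2, Snap25, Syt1, Rbfox3 and Gfap. The other 4, Tubb3, Stmn2, Gap43 and Sox10, lay above it in every array. Of 8 endothelial markers 7 lay under it in every array.

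Fam110b, a relative of Fam110c, fell at 4 h in every genotype, at -1.98 ± 0.22 log2 in homozygous (adjusted p = 4.64e-05, limma), -1.52 ± 0.22 in heterozygous (0.000385) and -1.56 ± 0.22 in wt cells (0.000507). Its arrays at 4 h, 5.11 to 5.71, lay below all untreated arrays, 6.82 to 7.51. At 24 h the Fam110b difference was -0.12, 0.06 and 0.08 log2, with no call. Fam110a was called higher in heterozygous cells at 4 h (1.11 ± 0.39, adjusted p = 0.0486), with 0.96 ± 0.39 in homozygous (0.0709) and -0.03 ± 0.39 in wt cells (0.966).

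The 4 genes resembled each other across the 9 group means, with Pearson's r between 0.912 (Foxs1 and Fam110c) and 0.97 (Sema7a and Foxs1). These correlations are descriptions over 9 points that share arrays, normalization and the rule that chose the genes. Among 2451 other genes whose group means spanned at least 1 log2, the closest to Lce1f were Ptgs2, a prostaglandin synthase (r = 0.996), Inhba, an activin subunit (0.993), the integrin gene Itga5 (0.990) and Il11 (0.987). The closest to Sema7a were Cyth2 (0.996), the AP-1 gene Junb (0.994), Vasn (0.991) and Nbl1 (0.990). Foxs1 was followed most closely by Slco4a1 (0.992), Tnfrsf12a (0.988), Vasn (0.984) and Fam207a (0.982). For Fam110c they were Timp3, a metalloproteinase inhibitor (0.992), Ubtd1 (0.986), Ociad2 (0.983) and Tec (0.977). The sizes differed widely: Ptgs2 rose by 1.08 log2 and Il11 by 4.86 in homozygous cells at 4 h, while Lce1f rose by 5.59. Vasn, which encodes a protein known to bind TGFb, rose by 1.01, 0.93 and 0.82 log2 at 4 h in homozygous, heterozygous and wt cells and stood at 0.28, 0.14 and 0.04 at 24 h.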

How the data were processed

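Expression in the fibroblasts was read from 18 Affymetrix arrays. The authors deposited GCRMA intensities on a linear scale, per the submitters' processing notes, which give no version. All 18 columns were used, and the only change made to the deposited values was to take log2. The array's 45101 probe sets include 64 controls. A single symbol is given for 34945, several for 932 and none for 9160, and 34741 matched the RefSeq table, with 0 symbols updated. The filter kept 18958 probe sets, 17442 with a single symbol. A gene was represented by its brightest such probe set. In R 4.3.3 with limma 3.58.1, a mean per group was fitted to all arrays (9 residual and a median of 3.78 prior degrees of freedom), with an intensity trend and two-sided tests. A group with both arrays under log2 5 has only a bound, counted from that level to the mean of the other group. No bound is given where an array of the other group was also under that level. Tested on simulated data for wt at 24 h with 10078 genes, the fit recovered 40.3% of changes of 1.5-fold, 74.6% at 2-fold and 97% at 4-fold, and made 9 false calls. The simulation changed 67, 67 and 66 genes at these folds, and its shares are not those of the 4 genes in particular.

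The 4 genes, the 12 gene and marker lists and the motifs were chosen with earlier results of these data known. Named besides the 4 genes were the 4 most similar genes of each, called list members with the largest changes, receptors of Sema7a, and Il11, Tgfb1 and Smad7. S100a13, S100a16, Ivl, Cspg4 and marker genes given at the dim level were named after their values were seen. No scan date or other batch was known, and none was modelled. Alternatives were the filter, the handling of probe sets, quantile normalization, an offset of 16, no trend, array weights, only the groups compared, replicate blocks and leaving out each array. The fit of each probe set alone and the crossed block were added after seeing the data.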

Additional observations from a re-analysis of the deposited data

How the results depend on the processing

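Lce1f at 24 h kept its direction and its call in all 3 genotypes under all alternatives, at 1.27 to 2.82 log2; the lowest values came from the mean of both probe sets, of which the dimmer was under log2 5 at both times. The fitted heterozygous Sema7a value at 24 h, from untreated arrays under log2 5, was 1.79 with no call without a filter and 1.25 with an offset of 16, and ranged from 1.52 to 2.06 when single arrays were left out. Array weights brought Sema7a (1.07), Foxs1 (1.18) and Fam110c (1.52) past the threshold in homozygous cells at 24 h, as did the fit of only the groups compared for Foxs1 (1.18, adjusted p = 0.0144) and Fam110c (1.52, 0.0442). Leaving out single arrays gave 0.68 to 1.45 for Sema7a and 1.06 to 1.99 for Fam110c there, and both were called without either wt 4 h array (adjusted p = 0.023 to 0.0433).

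Counts over all genes moved more. For 4 h against untreated, leaving out single arrays gave 2163 to 4344 genes in homozygous (3795 with all arrays), 1554 to 3579 in heterozygous (2904) and 967 to 3382 in wt cells (2108). For 24 h it gave 379 to 1124 in homozygous (867), 303 to 889 in heterozygous (712) and 599 to 1881 in wt cells (1175). Between genotypes at 24 h it gave 23 to 161 for heterozygous against wt (123), 9 to 112 for homozygous against wt (49) and 0 to 4 for homozygous against heterozygous (3). With array weights, 4 h gave 5860 in homozygous and 194 in wt cells, 24 h gave 2726, 1587 and 324 in homozygous, heterozygous and wt cells, and the genotypes at 24 h gave 193, 206 and 7 in the order above. With only the groups compared, 24 h gave 2037 in homozygous and 75 in wt cells, 4 h gave 24 in wt cells, and each genotype comparison gave 0. Heterozygous against wt gave 81 without a filter and 77 with a mean of at least 6, and homozygous against heterozygous gave 5 with the offset. Every probe set on its own, among 17442, gave 6208 in homozygous and 4696 in heterozygous cells at 4 h. The cause of these shifts was not tested, apart from the larger number of features in the last. A group left with a single array was assumed to vary like the others.

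Arrays share replicate numbers, but no label says what a number marks. Deviations of same-numbered arrays correlated at 0.376 to 0.61 within each mutant genotype, at -0.492 and -0.663 between untreated and treated wt arrays, and at -0.192 to 0.186 between genotypes. A replicate block within genotype called Foxs1 in homozygous cells at 24 h (1.18, adjusted p = 0.006) and gave 146 genes for homozygous against wt and 1 for homozygous against heterozygous. With the untreated wt numbers crossed, the block gave 1607, 1332 and 2011 genes at 24 h in homozygous, heterozygous and wt cells, and 501, 695 and 23 between genotypes. It then called Sema7a (1.07) and Fam110c (1.52) in homozygous cells and Fam110c in wt cells (a fitted 0.97 from dim untreated arrays) at 24 h, and Fam110c between homozygous and wt cells at 24 h (1.39, adjusted p = 0.0164). A block over all groups changed no call of the 4 genes.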

Other observations

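The nearest measured genes on each side of the 4 genes, by their order in RefSeq (GRCm38.p6), were looked at after the values of the 4 genes were seen. Unmeasured protein-coding genes lie between many of these pairs. Sh3yl1, a lipid-binding gene with no other protein-coding gene between it and Fam110c, rose at 4 h by 1.10 ± 0.15 log2 in homozygous (adjusted p = 0.000207, limma), 0.89 ± 0.15 in heterozygous (0.00107) and 0.62 ± 0.15 in wt cells (0.0137). At 24 h Sh3yl1 was at 0.87, 0.75 and 0.31 ± 0.15 (adjusted p = 0.00287, 0.00922 and 0.22). Lamb1, a laminin chain gene on the other side of Fam110c, fell at 4 h in homozygous cells (-0.34 ± 0.11 log2, adjusted p = 0.0322). Acp1 and Dld, the other measured neighbours of Fam110c, were called in none of the 6 comparisons with untreated cells. Clk3, a kinase gene with 2 protein-coding genes between it and Sema7a, rose at 4 h by 0.64 ± 0.14 log2 in homozygous, 0.66 ± 0.14 in heterozygous and 0.44 ± 0.14 in wt cells (adjusted p = 0.00362, 0.00381 and 0.0409, limma). Ubl7, directly next to Sema7a, and Ccdc33 were called in none of the 6 comparisons, and Islr was not called at 4 h but fell at 24 h (-2.59, -2.14 and -2.21 ± 0.24 log2 in homozygous, heterozygous and wt cells; adjusted p = 3.51e-05, 0.000159 and 0.000103, limma). Tpx2, the nearest measured gene on one side of Foxs1, was not called at 4 h and fell at 24 h (-0.62, -0.61 and -0.60 ± 0.15 log2; adjusted p = 0.019, 0.0259 and 0.0207, limma). On the other side Pdrg1 rose at 4 h by 1.03, 0.90 and 0.69 ± 0.13 log2, and Bcl2l1 and Tm9sf4 were called in none of the 6 comparisons. Of the measured neighbours of Lce1f, Lor, Lce1h and Crct1 are described above, and Prr9 was called higher at 4 h in homozygous cells (adjusted p = 0.0362, limma), from untreated arrays under log2 5.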
